A study of Mus musculus with 6 samples.

Results

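Chromatin accessibility was examined at genes for the protein targets of compounds in the 2 expanded potential stem cell (EPSC) media. The genes were chosen by name, 10 of 22367 annotated protein-coding genes. They comprised 3 targets of the D-EPSC medium (Hrh1, Hrh2 and Parp1) and 7 targets of the L-EPSC medium (Src, Lck, Mapk8, Mapk9, Mapk14, Map2k1 and Map2k2). Accessibility was read from ATAC-seq, in which the transposase Tn5 inserts adapters into open DNA, so that sequenced fragments accumulate as peaks over accessible chromatin. Each cell state had 2 libraries, which were technical replicates, and a single deposited peak list. All 3 states came from 1 line, J1, of strain 129SV. Mouse ESCs were grown on feeder cells or gelatin in serum medium (15% FBS) with LIF (1000 units/mL), the GSK3 inhibitor CHIR99021 (3 µM) and the MEK inhibitor PD0325901 (1 µM). D-EPSCs were grown in N2B27 with 5% KSR, LIF (1000 units/mL), CHIR99021 (3 µM), dimethindene maleate (2 µM) and minocycline hydrochloride (2 µM). L-EPSCs were grown in DMEM/F12 with 20% KSR, LIF (1000 units/mL), CHIR99021 (3 µM), PD0325901 (1 µM), A-419259 (0.3 µM), XAV939 (5 µM), JNK inhibitor VIII (4 µM) and SB203580 (10 µM). Both EPSC types were kept without feeder cells before the assay. LIF and CHIR99021 were thus common to all 3 states. PD0325901 was present for ESCs and L-EPSCs and absent for D-EPSCs, so the MEK genes were targets in the ESC medium as well.

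Dimethindene blocks the histamine receptor H1, a G protein-coupled receptor encoded by Hrh1. Hrh2 encodes the H2 receptor of the same ligand, and is included as its counterpart although dimethindene is known for H1. Minocycline inhibits Parp1, the enzyme that attaches poly-ADP-ribose to proteins at DNA breaks. In the L-EPSC medium, A-419259 acts on Src-family tyrosine kinases, which relay signals from membrane receptors. Lck is the family member of T cells, and its gene is known for a proximal and a distal promoter. JNK inhibitor VIII acts on the stress-activated kinases JNK1 and JNK2 (Mapk8 and Mapk9), SB203580 on p38α (Mapk14) and PD0325901 on MEK1 and MEK2 (Map2k1 and Map2k2), the kinases that activate ERK. These drugs bind the proteins, and the peak lists describe the genes.

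The 3 lists differed in length, with 28965 peaks for ESCs, 50225 for D-EPSCs (1.73 times the ESC number) and 46601 for L-EPSCs (1.61 times). The sequencing depth behind the lists is unknown. Peak numbers at a gene are read against these ratios. With 1 list per state and no value per replicate or per peak, no test was possible, and a missing peak says that none was listed, not that the chromatin was closed. Intervals are 95% Wilson intervals and cover counting error only. Of 6 markers of pluripotent cells, all had a peak at a start in both EPSC lists and 4 in the ESC list, where Nanog and Esrrb lacked one. Of 6 fibroblast markers, which would mark feeder cells, such a peak was listed for 1 in the ESC list, 4 in the D-EPSC list and 1 in the L-EPSC list. Over all protein-coding genes the shares with a start peak were 51.5%, 63.4% and 60.8% in these lists. The part of feeder or differing cells in the results below was not tested.

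A peak at a start, meaning within 1 kb of the start of a coding transcript, was listed in all 3 states for 7 of the 10 genes. They were Parp1, Src, Mapk8, Mapk9, Mapk14, Map2k1 and Map2k2. The same held for 50.4% of all protein-coding genes. The 3 exceptions, Hrh1, Hrh2 and Lck, differed from each other. Sequence before the outermost annotated start is shown for these and for 4 of the genes open in all states, on mm9 (NCBIM37 sequence), 200 bp each, 5′ to 3′ on the strand of the gene. Capitals mark matches to the short motifs described further on. The positions are chr6:114347730-114347929 (+) for Hrh1, chr13:54287298-54287497 (+) for Hrh2, chr4:129250886-129251085 (-) for Lck, chr1:182498886-182499085 (+) for Parp1, chr2:157243980-157244179 (+) for Src, chr14:34260345-34260544 (-) for Mapk8 and chr9:64101439-64101638 (-) for Map2k1.
Hrh1: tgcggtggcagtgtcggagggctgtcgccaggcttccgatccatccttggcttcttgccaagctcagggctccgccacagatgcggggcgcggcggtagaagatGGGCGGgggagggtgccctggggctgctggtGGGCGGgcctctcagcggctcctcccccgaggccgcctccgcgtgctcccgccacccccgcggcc
Hrh2: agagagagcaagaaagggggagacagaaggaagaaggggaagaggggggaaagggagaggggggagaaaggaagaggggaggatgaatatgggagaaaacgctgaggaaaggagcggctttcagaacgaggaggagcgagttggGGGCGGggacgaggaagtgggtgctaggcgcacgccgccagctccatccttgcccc
Lck: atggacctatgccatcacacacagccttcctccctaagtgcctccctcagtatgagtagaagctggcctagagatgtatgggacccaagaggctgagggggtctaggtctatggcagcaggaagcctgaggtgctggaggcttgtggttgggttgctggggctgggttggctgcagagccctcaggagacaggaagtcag
Parp1: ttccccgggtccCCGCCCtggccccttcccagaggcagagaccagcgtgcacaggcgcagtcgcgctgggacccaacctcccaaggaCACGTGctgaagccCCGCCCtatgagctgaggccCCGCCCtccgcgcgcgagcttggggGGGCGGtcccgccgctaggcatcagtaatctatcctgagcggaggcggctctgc
Src: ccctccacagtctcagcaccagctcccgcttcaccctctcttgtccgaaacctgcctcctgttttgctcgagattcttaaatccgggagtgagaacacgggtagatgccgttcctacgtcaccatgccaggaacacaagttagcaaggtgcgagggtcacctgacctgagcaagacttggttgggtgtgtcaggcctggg
Mapk8: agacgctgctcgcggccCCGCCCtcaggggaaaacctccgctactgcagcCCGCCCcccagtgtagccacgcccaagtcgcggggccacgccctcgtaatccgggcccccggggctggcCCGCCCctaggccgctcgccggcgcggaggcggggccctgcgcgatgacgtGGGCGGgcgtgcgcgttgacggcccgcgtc
Map2k1: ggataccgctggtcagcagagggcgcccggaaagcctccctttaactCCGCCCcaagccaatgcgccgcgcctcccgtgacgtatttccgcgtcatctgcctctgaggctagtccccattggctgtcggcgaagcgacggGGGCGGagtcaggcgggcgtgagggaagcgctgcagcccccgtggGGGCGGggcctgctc

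These stretches differed in base composition. The 200 bp before Lck held 0 CpG dinucleotides, whereas those before Mapk8 held 30. Parp1 had 18 CpG, Map2k1 had 21, Hrh1 had 19, Hrh2 had 9 and Src had 8. In the 1 kb around the outermost start, CpG observed/expected, the number of CpG divided by that which the C and G content gives, had a median of 0.836 in the 7 genes open in all states. It was 0.739 over all genes with a start peak in all 3 lists and 0.182 over genes with a start peak in no list. Among the exceptions it was 0.772 at Hrh1, 0.475 at Hrh2 and 0.256 at Lck. Src was the lowest of the open genes at 0.365, below Hrh1 and Hrh2, so the 7 open and the 3 other genes overlapped in this measure.

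**Figure D1:**
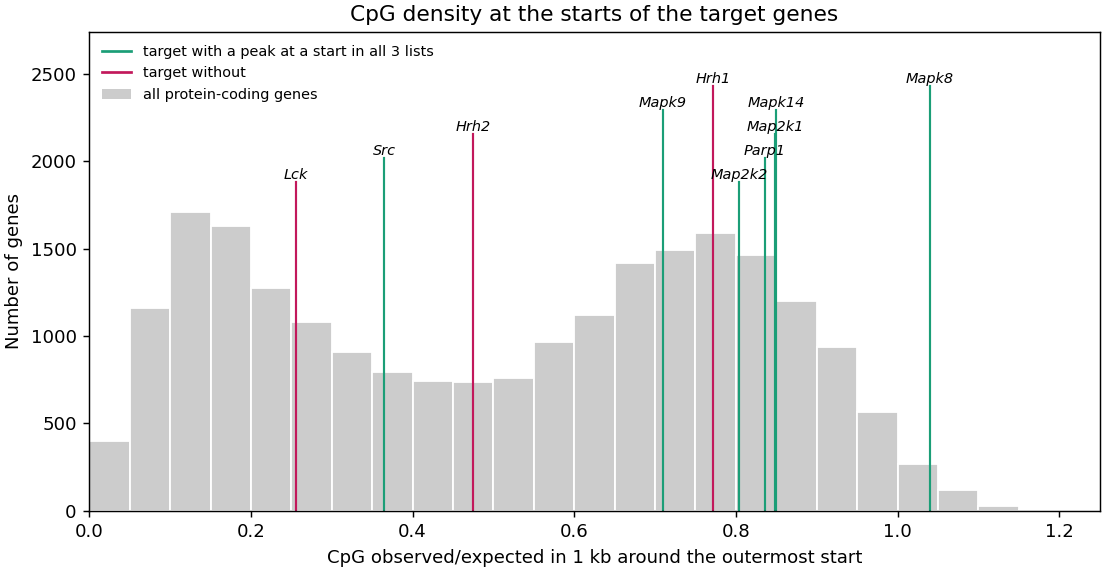
CpG observed/expected in 1 kb around the outermost start (x axis) for all 22367 protein-coding genes (grey bars, number of genes on the y axis) and for each target gene (vertical lines, whose height has no meaning). Mapk8 lies highest at 1.04 and Lck lowest at 0.256, and Src at 0.365 is the lowest of the genes open in all 3 lists, followed by Mapk9 at 0.710.

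Hrh1 (chr6:114347930-114433290, +) had 0 ESC, 1 D-EPSC and 3 L-EPSC peaks within the gene and 20 kb on either side. The L-EPSC list had a 233 bp peak at the outermost start, whose sequence is given above, a 264 bp peak in an intron and a 248 bp peak over a coding exon. The D-EPSC list had a single peak of 405 bp, whose midpoint lay 549 bp before an internal start and 60034 bp past the outermost one. No peak of 1 state overlapped a peak of another in this window. A start peak in both EPSC lists and not in ESCs was found in 9.16% of all genes, but at Hrh1 the 2 EPSC peaks were at different starts. The D-EPSC peak was poor in CpG and held no motif match, as its central 200 bp show (chr6:114407864-114408063, +).
Hrh1 internal start, D-EPSC list: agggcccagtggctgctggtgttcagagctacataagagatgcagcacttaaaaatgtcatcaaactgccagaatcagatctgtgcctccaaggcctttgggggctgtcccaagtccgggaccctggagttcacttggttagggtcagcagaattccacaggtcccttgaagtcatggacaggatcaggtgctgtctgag

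The H1 receptor gene thus had an L-EPSC peak at its outermost, CpG-rich start, while cells grown with the H1 antagonist had a peak at an internal start. When each list was reduced to its 28965 widest peaks, the counts at Hrh1 were 0, 1 and 0, so the L-EPSC peaks were among the narrow ones.

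Hrh2 (chr13:54287498-54317801, +) was the converse, with 4 ESC, 2 D-EPSC and 3 L-EPSC peaks. Its start carried an ESC peak of 158 bp and no EPSC peak, a pattern seen in 66 genes, or 0.295% of all. Only the 11522 genes with an ESC peak at a start could show this pattern. Hrh2 was singled out of the target genes for it, so the share is a description. The ESC peak was narrow, at the 4.56 percentile of width in its list. The nearest D-EPSC peak to the start was 23242 bp away and the nearest L-EPSC peak 6818 bp away. The widest region of the window lay in an intron, 23763 bp past the start, and was in all 3 lists, with widths of 326 bp in the ESC list, 1037 bp in the D-EPSC list and 917 bp in the L-EPSC list. Unlike the start, it was low in CpG (0.242) and held no motif match. Its central 200 bp (chr13:54311161-54311360, +) are shown for comparison with the start.
Hrh2 intron: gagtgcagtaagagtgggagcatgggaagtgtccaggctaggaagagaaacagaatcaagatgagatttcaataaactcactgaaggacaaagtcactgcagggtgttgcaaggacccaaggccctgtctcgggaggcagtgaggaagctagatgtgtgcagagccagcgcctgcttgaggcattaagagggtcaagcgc

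A loss of 2 or more peaks from ESCs to D-EPSCs, as at Hrh2, was found in 0.841% of all genes. Genes with fewer than 2 ESC peaks could not show such a loss. This share is a description as well, since Hrh2 was singled out of the target genes. With a window of 50 kb the counts at Hrh2 were 4, 6 and 3, so the order of ESCs and D-EPSCs turned. Without the commonest peak widths of each list they were 3, 2 and 3.

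Parp1 (chr1:182499086-182531384, +) was nearly the same in all states, with 3 ESC, 4 D-EPSC and 3 L-EPSC peaks. The start peak was 346 bp wide in the ESC list, 547 bp in the D-EPSC list and 596 bp in the L-EPSC list, and it reached into the first coding exon. The 200 bp before the start held 4 GC boxes and an E-box, the largest number of motif matches among the 10 genes. A region 2362 bp into the gene, in an intron, was also in all 3 lists, with widths of 364, 371 and 532 bp. The peaks at the far ends of the window differed, with peaks of 337 and 183 bp in the D-EPSC list only and a downstream region shared by ESCs and L-EPSCs.

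Src (chr2:157244180-157297598, +), the founding member of its kinase family, had 6 peaks in each list. Peaks of all 3 lists lay at the outermost start, around an internal start (region midpoint 38984 bp past the outermost start), in an intron and over a coding exon. The outermost start had a peak of 798 bp in the ESC list, 1265 bp in the D-EPSC list and 781 bp in the L-EPSC list, although it is low in CpG and held no motif match in the sequence above. The internal start was richer in CpG (0.687), with widths of 462, 703 and 609 bp. The equal totals hid changes in position. The ESC list alone had a 168 bp peak upstream, and the D-EPSC list alone a 379 bp peak downstream. Both EPSC lists had a region over a coding exon that ESCs lacked. The totals were not equal in other settings. Without the commonest peak widths of each list they were 4, 6 and 6, and with lists of equal length 6, 6 and 4.

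Lck (chr4:129225588-129250885, -) had 3 ESC, 6 D-EPSC and 7 L-EPSC peaks, and none within 1 kb of a coding start in any list. A start peak was listed in no state for 35.1% of all genes. The nearest region, over a coding exon with its midpoint 1654 bp from a coding start, was in all 3 lists and measured 168 bp in the ESC list, 1018 bp in the D-EPSC list and 362 bp in the L-EPSC list. It counted as a start peak in all 3 lists when the distance was raised to 2.5 kb or when starts of noncoding transcripts of the gene were included. A further exon region and a region 3544 bp before the outermost start were in both EPSC lists only. Part of the count belonged to a neighbour, as a downstream region in all 3 lists lay at the start of Hdac1, a histone deacetylase gene. That region held 2 of the 7 L-EPSC peaks and 1 of the 6 D-EPSC peaks. Without regions at starts of other genes, Lck kept 2, 5 and 5 peaks.

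Both JNK genes had a start peak in every list. Mapk8 (chr14:34191084-34260344, -) had 1 ESC, 2 D-EPSC and 2 L-EPSC peaks, namely the start peak of 551, 931 and 792 bp and a downstream region of both EPSC lists only. Its start had the highest CpG value of the 10 genes (1.04, the 99.1 percentile of all genes) and 4 GC boxes in the sequence above. Mapk9 (chr11:49660253-49699923, +) had 3, 4 and 4 peaks, with start peaks of 657, 888 and 693 bp. A D-EPSC peak of 162 bp and an L-EPSC peak of 222 bp lay in the same part of the gene without overlapping. Both remaining regions of Mapk9 were downstream and in all 3 lists, and the first was at the start of Rasgef1c.

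Mapk14 (chr17:28828287-28885349, +), encoding p38α, had 2 ESC, 2 D-EPSC and 3 L-EPSC peaks. Its start peak was the widest of the 10 genes in ESCs (1058 bp), D-EPSCs (1416 bp) and L-EPSCs (1309 bp), and the region also lay at a start of Slc26a8. Beyond it, the ESC list had a 518 bp intron peak that neither EPSC list had, the L-EPSC list had a 200 bp intron peak, and both EPSC lists had a downstream region. The last 2 each held an AP-1 match.

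Among the 10 genes, Map2k1 had the largest differences in peak number from ESCs in the 20 kb windows and Map2k2 the largest between the EPSC lists. Both ranks depended on the setting. For D-EPSCs against ESCs, Lck gained more than Map2k1 with 5 kb (1 to 4 against 2 to 4) and with 50 kb (7 to 14 against 4 to 10). With lists of equal length both gained 2, and the largest difference was at Hrh2, which fell from 4 to 1. For L-EPSCs against ESCs, Hrh1 and Map2k1 each gained 3 with 5 kb. Between the EPSC lists, Hrh1 (1 and 3) differed more than Map2k2 (2 and 1) with 5 kb, and with lists of equal length Hrh2, Src, Map2k1 and Map2k2 each differed by 2. Map2k1 (chr9:64033577-64101438, -) had 3 ESC, 8 D-EPSC and 10 L-EPSC peaks. A gain of 5 or more peaks from ESCs to D-EPSCs occurred in 5.36% of all genes, and a gain of 7 or more from ESCs to L-EPSCs in 1.06%. Map2k1 was singled out of 10 genes for this count and its window (108 kb) is longer than the median of all genes (55.4 kb), so these shares are descriptions. The start peak, of 597, 848 and 830 bp, was shared by all states. The gains were spread over both flanks and the gene body, with 4 regions in both EPSC lists only, 3 in L-EPSCs only and 2 in D-EPSCs only, beside 1 intron region in ESCs only. Of the 4, 1 lay at the starts of Zwilch and Rpl4, and a further region, in all 3 lists, at the start of Snapc5. The region at Zwilch and Rpl4 held 2 of the 10 L-EPSC peaks, so the gain of 7 includes 2 peaks of 1 region. Without regions at starts of other genes, the counts were 2, 6 and 7, and with lists of equal length they were 3, 5 and 7. A region 13847 bp upstream, with a D-EPSC peak of 148 bp and an L-EPSC peak of 214 bp, held the only octamer match of all target regions together with a KLF match. It is shown by 200 bp (chr9:64115185-64115384, -).
Map2k1 upstream, both EPSC lists: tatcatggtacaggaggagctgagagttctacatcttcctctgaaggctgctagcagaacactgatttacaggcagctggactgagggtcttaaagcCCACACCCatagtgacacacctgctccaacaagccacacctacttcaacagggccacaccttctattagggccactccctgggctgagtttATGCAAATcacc

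Map2k2 (chr10:80568660-80587442, +) had 3 ESC, 6 D-EPSC and 2 L-EPSC peaks. The start peak was in all lists, at 942, 1109 and 1141 bp. Of the other regions 4 were in D-EPSCs only, 1 in ESCs only and 1 in all 3 lists. The last and 1 of the 4 lay at the start of Zbtb7a, and without regions at starts of other genes the counts were 2, 4 and 1. An excess of 4 or more D-EPSC over L-EPSC peaks was found in 1.58% of all genes, a description as well, since Map2k2 was singled out in the same way. The 2 EPSC lists thus differed at Map2k2, whereas at Map2k1 both were above the ESC list. With lists of equal length the counts were 3, 4 and 2.

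**Figure D2:**
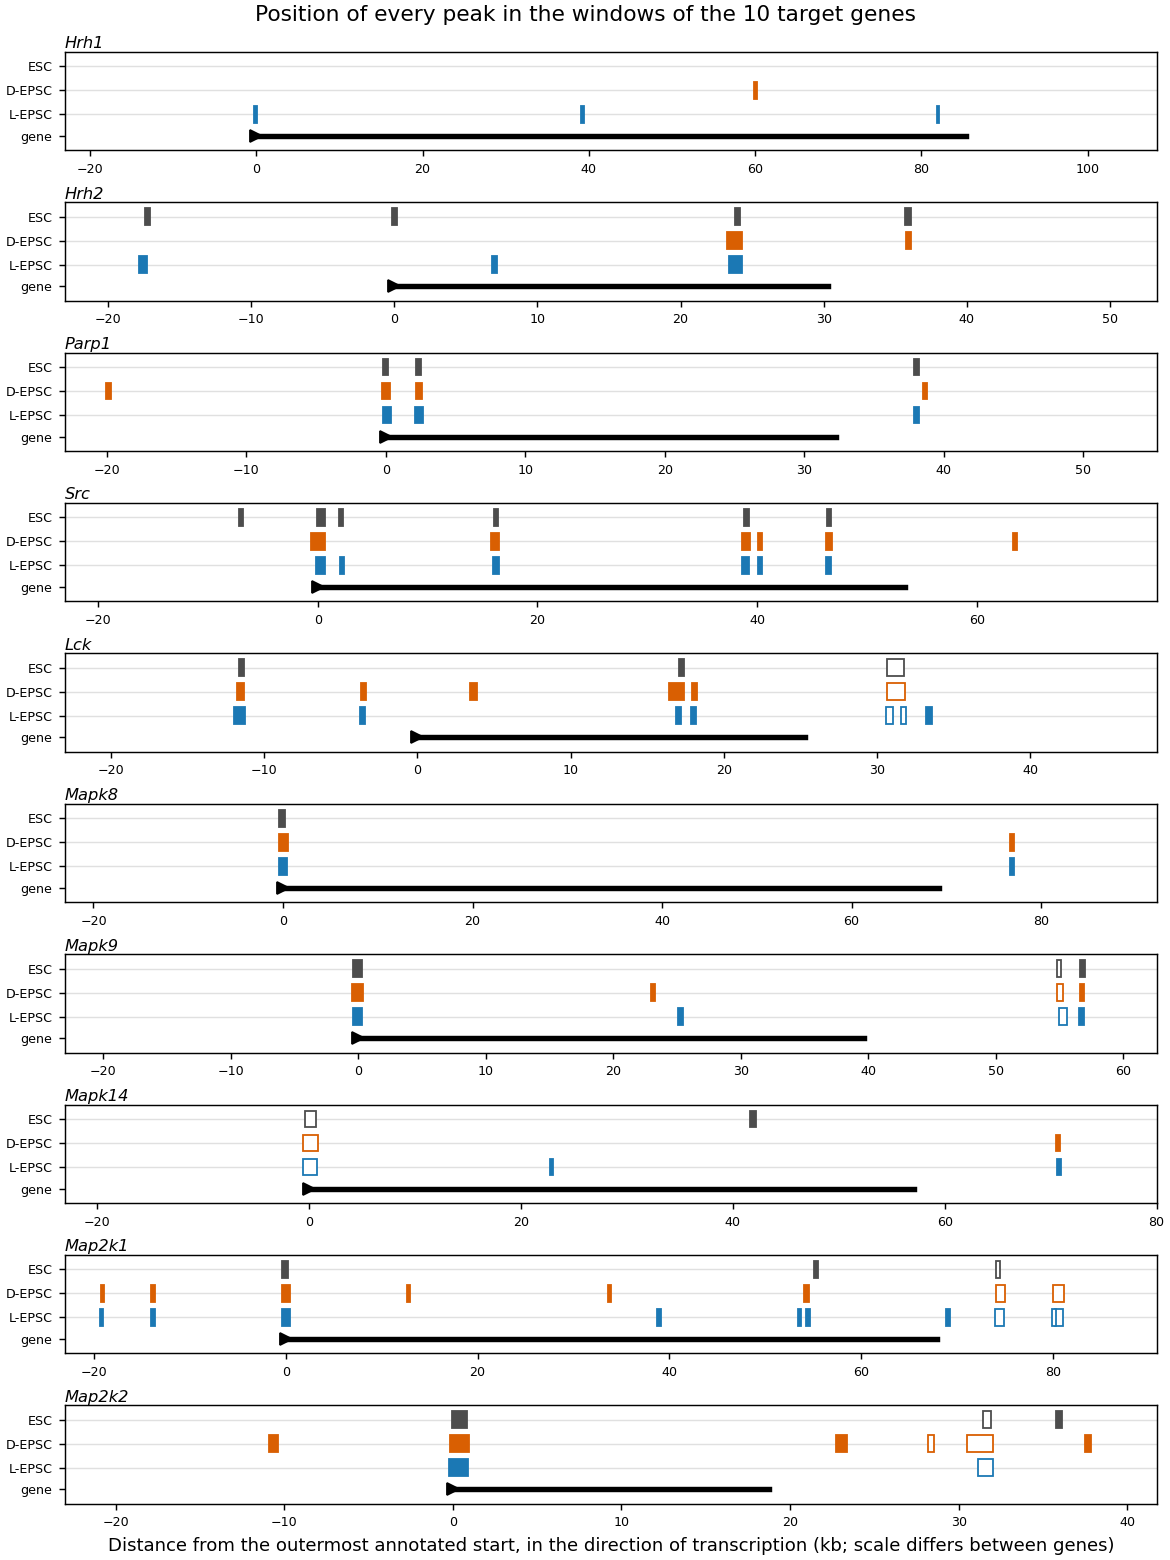
Position of every peak in the gene and 20 kb on either side, in kb from the outermost start in the direction of transcription, with 1 panel per gene and 1 row per list. Filled bars are peaks, open bars are peaks in regions at the start of another gene, the black line is the gene, and the narrowest peaks are drawn wider than they are. Start peaks line up across all 3 rows in 7 genes, and most EPSC-only peaks of Map2k1 lie away from its start.

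Over the 10 windows, 28 ESC, 41 D-EPSC and 43 L-EPSC peaks were found. With lists of equal length the numbers were 28, 30 and 27, so that the excess of L-EPSC over ESC peaks was not kept. The full numbers are 0.0967%, 0.0816% and 0.0923% of their lists. The targets had 1.46 times as many D-EPSC as ESC peaks and 1.54 times as many L-EPSC as ESC peaks. Of the ESC and D-EPSC peaks together 59.4% were D-EPSC peaks (47.6 to 70.2), against 63.4% of all peaks. Of the ESC and L-EPSC peaks together 60.6% were L-EPSC peaks (48.9 to 71.1), against 61.7% of all peaks. Both intervals contain the value of the whole lists, so a difference from the genome was not detectable with these counts. Split by medium, the targets of the D-EPSC compounds had 7 ESC, 7 D-EPSC and 9 L-EPSC peaks, and those of the L-EPSC compounds 21, 34 and 34.

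**Figure D3:**
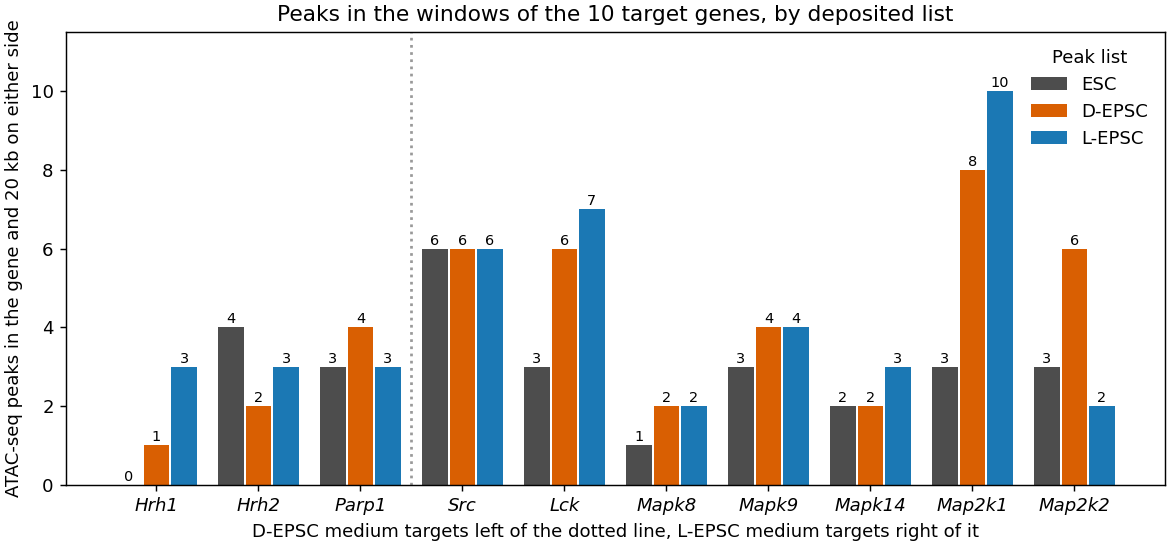
Number of ATAC-seq peaks (y axis) in the gene and 20 kb on either side for each target gene (x axis), with 1 bar per deposited list and no replicates. Map2k1 rises from 3 in ESCs to 8 and 10 in the EPSC lists, while Hrh2 falls from 4 to 2 and 3.

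More D-EPSC than ESC peaks were found at 7 genes (Hrh1, Parp1, Lck, Mapk8, Mapk9, Map2k1 and Map2k2), beside 56.5% of all genes, and fewer at Hrh2, beside 5.77%. More L-EPSC than ESC peaks were found at 6 genes (Hrh1, Lck, Mapk8, Mapk9, Mapk14 and Map2k1), beside 52.5%, and fewer at Hrh2 and Map2k2, beside 6.05%. D-EPSCs had more peaks than L-EPSCs at Parp1 and Map2k2, beside 31.1% of all genes, and fewer at Hrh1, Hrh2, Lck, Mapk14 and Map2k1, beside 21.3%. This balance turned with 50 kb on either side (more at 6 genes, beside 39.5% of all genes, and fewer at 4, beside 25.3%). It also turned with lists of equal length (more at 5, beside 22.3%, and fewer at 2, beside 20.6%). The comparison with ESCs also depended on list length. With the 28965 widest peaks of each list, D-EPSCs had more peaks than ESCs at 4 genes, beside 27.5% of all genes, and fewer at 2, beside 21.1%. L-EPSCs then had more peaks than ESCs at 2 genes (Lck and Map2k1), beside 25.8% of all genes. They had fewer at 6 (Hrh2, Parp1, Src, Mapk9, Mapk14 and Map2k2), beside 20.7%, which turns the direction of the full lists.

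Start peaks were counted at 8 of the 10 genes in every list, beside 51.5% of all genes for the ESC list, 63.4% for the D-EPSC list and 60.8% for the L-EPSC list. The members changed between lists, with Hrh2 in the ESC list only and Hrh1 in the EPSC lists only. At the 7 genes open in all states the widest start peak was wider in D-EPSCs than in ESCs in every case, beside 82.8% of 11276 genes. It was wider in L-EPSCs than in ESCs at 6 of the 7, beside 77.4%, the exception being Src. The median ratio of widths was 1.42 for D-EPSCs and 1.24 for L-EPSCs against ESCs, close to 1.36 and 1.27 over all such genes. Peak edges depend on depth, which is unknown here.

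**Figure D4:**
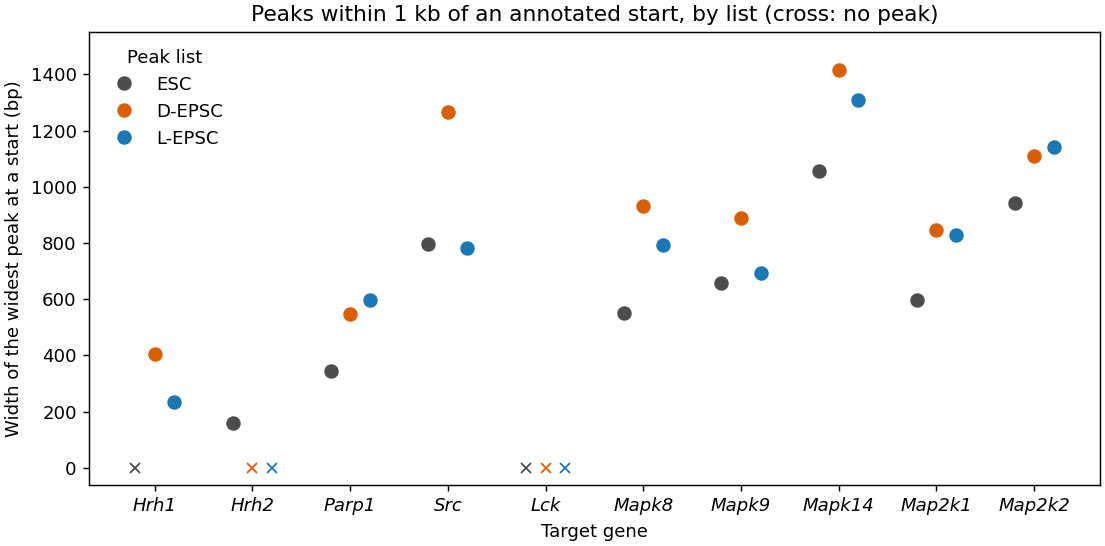
Width in bp of the widest peak within 1 kb of a start (y axis) for each target gene (x axis), 1 point per list, with a cross where no peak was listed. The D-EPSC point is above the ESC point at all 7 genes open in the 3 lists, and Src is the gene where the L-EPSC peak (781 bp) is narrower than the ESC peak (798 bp).

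Merging overlapping peaks gave 59 regions in the 10 windows, out of 65518 in the genome. Of these 19 were in all 3 lists (32.2%, interval 21.7 to 44.9), beside 33.2% of all regions. Both EPSC lists only held 9 (15.3%, 8.24 to 26.5), beside 18.4%, and ESCs only 5 (8.47%, 3.67 to 18.4), beside 5.12%. With lists of equal length these were 4 and 8, so their order turned, as it did over all regions (9.03% and 16.2%). The intervals contain the genome values for these classes. Regions of both EPSC lists only were found in the windows of 5 genes, Src, Lck, Mapk8, Mapk14 and Map2k1, beside 43.9% of all genes. They were all at L-EPSC medium targets, with 9 of 45 regions (20.0%, 10.9 to 33.8), and the D-EPSC medium targets had 0 of 14, which allows up to 21.5%. ESC-only regions were found at Hrh2, Src, Mapk14, Map2k1 and Map2k2, 5 genes, beside 12.7% of all genes, whose median window was shorter (55.4 against 86.5 kb). At a start of any coding gene 12 of 17 regions were in all 3 lists (70.6%, 46.9 to 86.7), beside 69.2% of all such regions in the genome. Elsewhere 7 of 42 were (16.7%, 8.32 to 30.6), beside 22.2%, so both shares were near those of the genome. None of the 9 regions of both EPSC lists only was at a start of the 10 genes, where 11 of the 59 regions lay. Among the 9, the region at Zwilch and Rpl4 was at starts of these other genes. The genome share of this class at starts was not computed.

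**Figure D5:**
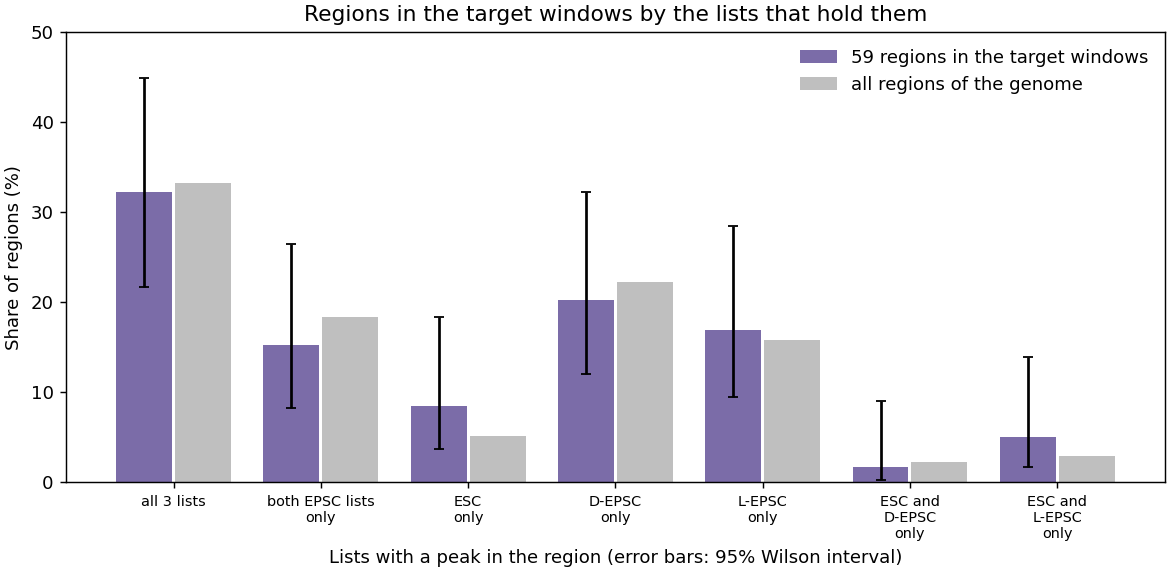
Share of regions in percent (y axis) by the lists with a peak in the region (x axis), for the 59 regions of the target windows (purple, with 95% Wilson intervals) and all 65518 regions (grey). Each interval contains the grey value beside it.

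Motifs were searched on both strands in 400 bp around the midpoint of each region, as letters without mismatch. The GC box GGGCGG was found in 23 of the 59 regions (39.0%, all regions 30.8%) and in 9 of the 11 at a start, beside 69.7% of all regions at a coding start. AP-1 (TGANTCA) was found in 11.9% of target regions and 10.8% of all regions, and in 0 of the 11 at a start, beside 5.16% of all such regions. KLF (GGGTGTGG, which may overlap a GC box) was found in 8.47% and 6.55%, E-box (CACGTG) in 6.78% and 8.02%, CRE (TGACGTCA) in 3.39% and 0.995%, and ESRRB (TCAAGGTCA) in 3.39% and 1.47%. ETS (CCGGAAG) and the octamer (ATGCAAAT) were found in 1 region each, at Mapk9 and Map2k1, beside 6.72% and 2.85% of all regions. NRF1 (GCGCATGC) was found in 0 of these windows, beside 1.88%, although 2 overlapping matches lay in the 200 bp before the outermost start of Map2k2, inside its start region and outside the searched window. Both ESRRB matches were found around intron regions of Map2k1 that the ESC list lacked, 1 inside its region and 1 in the searched window outside the 181 bp peak. These matches are letters in a window and do not show that a factor was bound.

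Among 19 relatives of the targets, 13 had a start peak in all 3 lists (50.4% of all genes). The JNK3 gene Mapk10 and the p38 genes Mapk11 and Mapk13 had one in both EPSC lists and not in ESCs, as did 9.16% of all genes, while the Src-family genes Fgr and Blk and the receptor gene Hrh4 had none in any list. Fyn, a Src-family kinase of many tissues, had 2 ESC, 10 D-EPSC and 7 L-EPSC peaks, and Mapk13, whose window overlaps that of Mapk14, had 1, 5 and 4. The GSK3 genes Gsk3a and Gsk3b and the tankyrase genes Tnks and Tnks2, targets of CHIR99021 and XAV939, had start peaks in all 3 lists. Chrm2, the muscarinic receptor gene that dimethindene also reaches, had 0 peaks in every list. Of 20 genes upstream or downstream of the targets, 19 had a start peak in all 3 lists, again beside 50.4% of all genes. The other was Csk, the kinase that inactivates Src-family kinases, with 0 ESC, 4 D-EPSC and 4 L-EPSC peaks. Dusp6, the ERK phosphatase and a known response gene of the MEK pathway, had 1, 5 and 6 peaks, Dusp10 had 3 in each list, and Atf2, a transcription factor gene, had 5, 3 and 4. Of the 20 genes, 14 had more and 3 fewer peaks in D-EPSCs than in ESCs, and 13 had more and 5 fewer in L-EPSCs than in ESCs. Over all genes these shares were 56.5% and 5.77%, and 52.5% and 6.05%. With lists of equal length 9 had more and 6 fewer in D-EPSCs, beside 27.5% and 21.1% of all genes, and 10 had more and 7 fewer in L-EPSCs, beside 25.8% and 20.7%.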

How the data were processed

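The authors trimmed reads, aligned them to mm9 with Bowtie2 2.3.5, filtered them with SAMtools 1.10 and called peaks with MACS. How the replicates were combined, and whether duplicates were removed or cut positions shifted, is not given in the sources used here. The deposited values are other than counts or signal: start and end positions of peaks, 1 list per state, with no score. Members and gene lists were chosen with earlier results of these data known. Genes and protein-coding transcript starts came from GENCODE M1 on NCBIM37, which is mm9, and chromosomes 1 to 19, X and Y were used. Peaks were counted with 1 bp of overlap in the gene with 20 kb on either side, and at a start within 1 kb. Overlapping peaks were merged into regions. All 10 targets are named, with up to 4 examples from each other list, except that some counts of 5 or fewer genes are named in full. The examples and these counts were chosen after their values were seen. Counting was checked against bedtools 2.31.1 on simulated peaks, in 1000 random windows per simulated list, with equal counts in 1000 of 1000. The deposited lists were not part of this check. Python 3.11.15, numpy 2.4.6, scipy 1.17.1 and matplotlib 3.10.9 were used. Alternatives were other windows, start distances, the widest peaks, midpoints, merging within 200 bp, and neighbouring starts left out. Leaving out the commonest peak widths and using all transcript starts were chosen after seeing the data.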

Additional observations from a re-analysis of the deposited data

How the results depend on the processing

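No paired analysis was possible because each state had a single peak list with no value per replicate. Leaving out a replicate was not possible either. Of 75 recomputed values, 59 were within 1.5 times the reported value and 16 moved further. With 5 kb on either side of the gene the windows held 17 ESC, 23 D-EPSC and 27 L-EPSC peaks, with 4 regions of both EPSC lists only and 3 of ESCs only. With 50 kb they held 44, 76 and 67 peaks and 32 regions in all 3 lists, and 6 genes had more D-EPSC than L-EPSC peaks and 4 fewer, against 2 more and 5 fewer with 20 kb. D-EPSC peaks at Hrh2 then exceeded ESC peaks (6 and 4), where the 20 kb window has fewer (2 and 4). When each list was reduced to its 28965 widest peaks, 27 L-EPSC peaks were left beside 28 ESC and 30 D-EPSC peaks, so that L-EPSCs fell below both. Then 4 genes had more D-EPSC than ESC peaks, 2 more and 6 fewer L-EPSC than ESC peaks, and 5 more and 2 fewer D-EPSC than L-EPSC peaks. The last 2 directions turned, as did the order of region classes, with 4 regions of both EPSC lists only and 8 of ESCs only. This setting takes peaks away from the EPSC lists alone. The count of genes with a start peak stayed between 7 and 9 of 10 in every list and setting. The unknown depth limits what a missing narrow peak can say.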

Other observations

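Of the 59 regions, 7 lay at the start of a gene other than the target they were counted for. They were at Hdac1, Rasgef1c, Slc26a8, Zwilch with Rpl4, Snapc5 and, with 2 regions, Zbtb7a. Both CRE matches (TGACGTCA) of the 59 regions were among these, at Zwilch with Rpl4 and at Snapc5, downstream of Map2k1. The region at Zwilch and Rpl4 was 1141 bp wide in D-EPSCs, while ESCs had no peak there. Rpl4 encodes a ribosomal protein and Zwilch a kinetochore protein. The Zbtb7a region in all 3 lists was 469 bp wide in the ESC list, 1575 bp in the D-EPSC list and 872 bp in the L-EPSC list, and the D-EPSC width was at the 99.0 percentile of that list.

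The commonest peak widths of the ESC list, 128 and 168 bp, made up 9.78% of its peaks. The commonest widths of the other lists made up 5.46% of all D-EPSC peaks and 5.10% of all L-EPSC peaks. At the targets 4 of the 28 ESC peaks had a commonest width of their list, beside 0 of 41 D-EPSC and 0 of 43 L-EPSC peaks. The 4 included the ESC peak of the region nearest to a start of Lck and 2 of the 6 ESC peaks at Src.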
